A study of Mus musculus with 6 samples.

Results

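The MS4A genes encode small membrane proteins that pass through the membrane several times and keep both ends in the cytoplasm. Here 9 of them were followed in tumor-associated macrophages (TAMs), the macrophages that populate a tumor, after deletion of PD-1 in the myeloid lineage: Ms4a4a, Ms4a4b, Ms4a4c, Ms4a6b, Ms4a6c, Ms4a6d, Ms4a7, Ms4a8a and Ms4a14. They were taken as a list of gene symbols, matched to their Ensembl identifiers, among 55421 genes in the deposited count table, and all 9 were abundant enough to be among the 14469 genes tested. TAMs were collected on day 15 from mice bearing fibrosarcomas (from implanted tumor cells that the labels call M17), with 3 libraries from Pdcd1f/f mice and 3 from Pdcd1f/fLysMcre mice. Both genotypes carry floxed alleles of Pdcd1, the gene of the checkpoint receptor PD-1, and Pdcd1f/fLysMcre mice also carry Cre recombinase driven by the promoter of the lysozyme gene Lyz2 (LysM), which is active in macrophages, monocytes and neutrophils. The labels give the sorted cells as CD11b+ and positive for the macrophage surface antigen that Adgre1 encodes. They do not state the age of the mice, or whether a library came from 1 mouse or a pool.

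The family is best known from its lymphoid and mast cell members. Ms4a1 encodes CD20, the B cell surface protein targeted by therapeutic antibodies, and Ms4a2 encodes the beta chain of the high-affinity IgE receptor of mast cells and basophils. Several other members are expressed in monocytes and macrophages: MS4A4A marks tissue macrophages, is induced by interleukin-4 and glucocorticoids and associates with the beta-glucan receptor dectin-1, and Ms4a7 is widely used as a marker of macrophages at the borders of the brain. Most mouse members lie together in 1 gene cluster, in which close copies arose by duplication.

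The 9 genes lie on chromosome 19 of the GRCm38 build, between positions 11067471 and 11604849, a span of 537 kb. In order of position they are Ms4a8a (11067471 to 11081102), Ms4a14 (11301249 to 11314454) and Ms4a7 (11321039 to 11336146) on the minus strand, then Ms4a4a (11375523 to 11392790), Ms4a4c (11404770 to 11427246), Ms4a4b (11443553 to 11467055), Ms4a6c (11469366 to 11482192) and Ms4a6b (11516512 to 11531256) on the plus strand, and Ms4a6d (11586604 to 11604849) on the minus strand. Each is annotated as protein coding.

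Because reads were 42 bases long, close copies within the family were compared first. The predicted proteins of Ms4a4b and Ms4a4c, each 226 residues, were identical at 84.5% of aligned positions, and their coding sequences at 91.7%. Among the Ms4a6 genes, protein identity was 70.4% between Ms4a6b and Ms4a6d, 63.2% between Ms4a6b and Ms4a6c and 55.6% between Ms4a6c and Ms4a6d. Ms4a4a, despite its name, shared 42.6% of positions with Ms4a4c and 41.0% with Ms4a4b, and Ms4a7 shared at most 28.5% with any other member. Ms4a14 encodes a much longer protein of 1232 residues, against 217 to 290 residues for the others. The following 60-base stretches of the coding strand show how alike the copies can be. They were chosen because they lie in coding exons where copies are nearly or fully the same, and capitals mark bases that differ from the first gene of each group.
Ms4a4b, chr19:11459161-11459220, plus strand: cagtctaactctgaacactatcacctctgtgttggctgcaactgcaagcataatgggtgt
Ms4a4c, chr19:11419001-11419060, plus strand: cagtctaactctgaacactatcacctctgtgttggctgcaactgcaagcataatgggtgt
Ms4a6b, chr19:11521671-11521730, plus strand: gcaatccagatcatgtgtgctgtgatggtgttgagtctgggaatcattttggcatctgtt
Ms4a6c, chr19:11472393-11472452, plus strand: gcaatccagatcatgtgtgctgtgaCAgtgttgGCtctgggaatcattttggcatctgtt
Ms4a6d, chr19:11601905-11601964, minus strand: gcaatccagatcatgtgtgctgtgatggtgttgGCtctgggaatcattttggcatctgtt
The stretch is the same in Ms4a4b and Ms4a4c, while Ms4a6c differed from Ms4a6b at 4 of the 60 bases and Ms4a6d at 2. Such stretches are short against the whole transcripts. Of all 42-base windows in the annotated transcripts, no window of Ms4a4a or Ms4a14 occurred in another gene on either strand, and the share was 0.29% for Ms4a8a, 0.68% for Ms4a7, 3.2% for Ms4a4b, 3.93% for Ms4a6d, 5.32% for Ms4a6b and 10.65% for Ms4a4c. Ms4a6c stood apart with 54.06%, of which 1009 of 1086 windows occurred in BE692007, a noncoding gene on the opposite strand that overlaps it over 12027 bp. BE692007 itself had 5 to 25 counts per library. The library kit keeps strand, but whether the counting used it is not stated, so the count of Ms4a6c is less certain than that of the other members.

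The sorted cells held the family in very unequal amounts. Levels of different genes were compared as normalized counts per kb of annotated exon, since long genes collect more reads. In Pdcd1f/f TAMs, Ms4a4a was the highest member, with 39258 ± 1698 per kb (SD, n = 3). Ranks were taken over the mean of all 6 libraries, where Ms4a4a was 48 of 14454 tested genes with a known length. Ms4a6d followed with 30211 ± 807 per kb in Pdcd1f/f TAMs (rank 63) and Ms4a6c with 17527 ± 838 per kb (rank 122). By these ranks, 3 MS4A genes were within the top 0.844% of the genes ranked. Ms4a7 (6561 ± 662 per kb), Ms4a4c (5952 ± 408 per kb) and Ms4a6b (4917 ± 349 per kb) came next. Ms4a14 (1247 ± 235 per kb) and Ms4a8a (500 ± 30.3 per kb) were lower, and Ms4a4b was the lowest member with 36.9 ± 4.51 per kb (rank 10994). In the Pdcd1f/f libraries, every neighbouring pair in this order was separated without overlap except Ms4a7 and Ms4a4c. In the Pdcd1f/fLysMcre libraries the same order held by the means, but Ms4a4a (26278 ± 2051 per kb) and Ms4a6d (23904 ± 2268 per kb) overlapped, as did Ms4a7 and Ms4a4c. The per-kb level of Ms4a4b was computed over 8780 bp of exon from 7 annotated transcripts and that of Ms4a4a over 836 bp from 1 transcript, so both depend on the annotation. The close copies Ms4a4b and Ms4a4c thus differed widely in abundance. Within a library, Ms4a4b had 0.0295 to 0.033 counts for each Ms4a4c count in Pdcd1f/f TAMs and 0.0185 to 0.0244 in Pdcd1f/fLysMcre TAMs.

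Across the family, 4 genes were called lower in Pdcd1f/fLysMcre TAMs and none was called higher, where 2.42% of all tested genes rose. Ms4a4a, Ms4a6b, Ms4a6c and Ms4a6d fell by between 20.8% and 33.0% in Pdcd1f/fLysMcre TAMs and passed the threshold of edgeR's quasi-likelihood test (Benjamini-Hochberg adjusted p under 0.05 over all 14469 genes). In the same test 786 genes, or 5.43%, passed in either direction and 436, or 3.01%, were lower in Pdcd1f/fLysMcre TAMs. In 5 members, these 4 and Ms4a4b, all Pdcd1f/fLysMcre libraries lay below all Pdcd1f/f libraries, as was the case for 13.1% of all tested genes. The estimate was below 0 for 8 of the 9 members, and the median log2 fold change was -0.34 over the 9 members against -0.0 over all tested genes. Together the 9 genes took 0.428%, 0.397% and 0.383% of all counts in Pdcd1f/f TAMs, compared with 0.306%, 0.345% and 0.294% in Pdcd1f/fLysMcre TAMs. The 95% Wilson intervals of these shares, such as 0.426% to 0.43% for Pdcd1f/f replicate 1, cover counting error only. In bulk RNA of sorted cells, fewer macrophages of a kind that expresses a gene and less RNA of that gene per cell cannot be told apart.

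**Figure D1:**
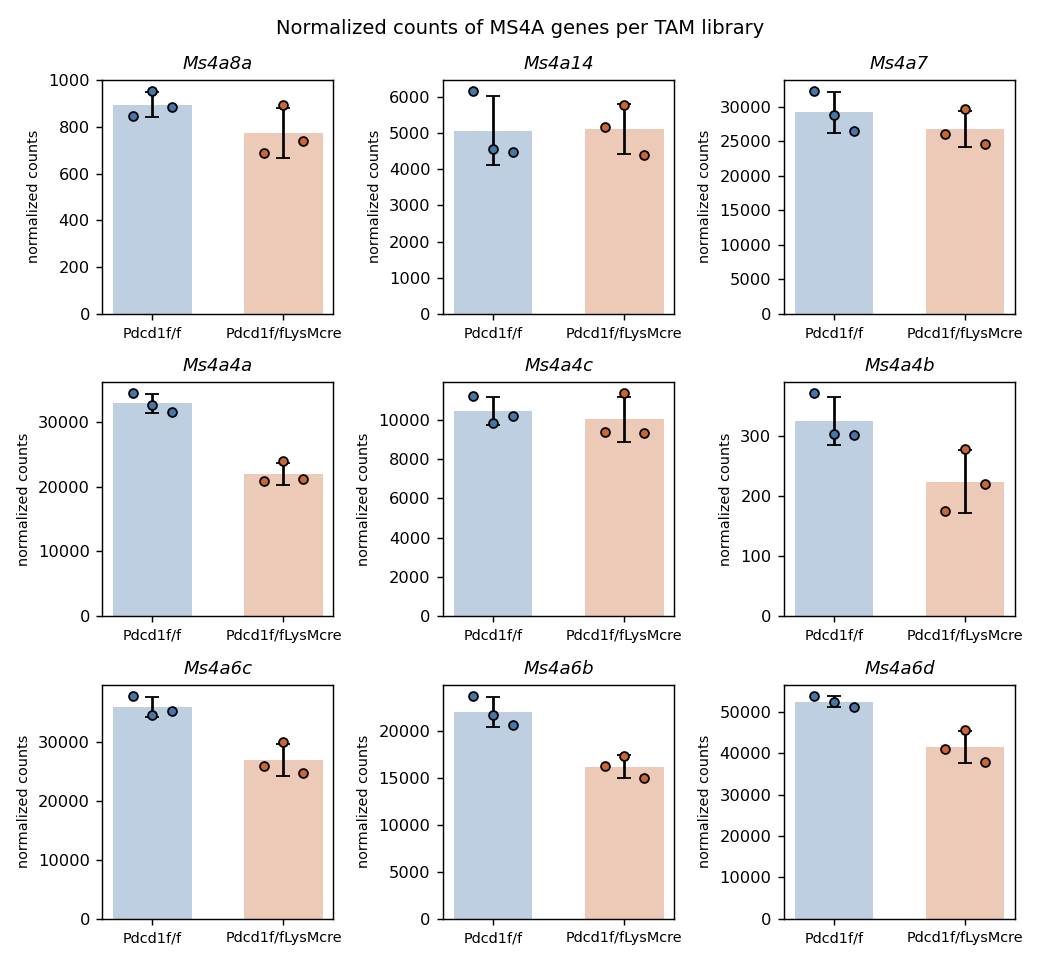
Normalized counts (authors' values, y axes from 0, one scale per gene) of 9 MS4A genes in each TAM library of Pdcd1f/f and Pdcd1f/fLysMcre mice. Points are libraries, bars are means and error bars are SD (n = 3), and the libraries of Ms4a4a, Ms4a4b, Ms4a6c, Ms4a6b and Ms4a6d do not overlap between the genotypes.

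Ms4a4a, the macrophage member tied to alternative activation, showed the largest fall of the 4 called members. The Pdcd1f/f libraries held 34354, 32552 and 31553 normalized counts of Ms4a4a, and the Pdcd1f/fLysMcre libraries, likewise in replicate order, held 20858, 23943 and 21105. The lowest Pdcd1f/f library was above the highest Pdcd1f/fLysMcre library by several times the SD of either group (1420 and 1714). The log2 fold change was -0.58 (SE 0.07, 95% interval -0.73 to -0.42, edgeR adjusted p = 0.00142), a fall of 33.0%. Leaving out any 1 of the 6 libraries kept it past the threshold, with log2 fold changes between -0.64 and -0.54.

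The Ms4a6 genes, a trio of close copies expressed in monocytes and macrophages, fell together and by similar amounts. For Ms4a6d, normalized counts of 53829, 52390 and 51028 in Pdcd1f/f TAMs compared with 40876, 45674 and 37872 in Pdcd1f/fLysMcre TAMs. The Pdcd1f/f libraries lay close together (coefficient of variation 2.67%), and the highest Pdcd1f/fLysMcre library, replicate 2, remained below all of them. Its log2 fold change was -0.34 (SE 0.07, 95% interval -0.5 to -0.17, edgeR adjusted p = 0.0282). For Ms4a6c, 37867, 34592 and 35335 normalized counts in Pdcd1f/f TAMs compared with 26010, 30024 and 24843 in Pdcd1f/fLysMcre TAMs. Here too replicate 2 was the highest of the Pdcd1f/fLysMcre libraries and below every Pdcd1f/f library. Its log2 fold change was -0.41 (SE 0.08, 95% interval -0.59 to -0.24, edgeR adjusted p = 0.014). For Ms4a6b, 23770, 21676 and 20709 normalized counts in Pdcd1f/f TAMs compared with 16300, 17374 and 15013 in Pdcd1f/fLysMcre TAMs, again without overlap. Its log2 fold change was -0.44 (SE 0.08, 95% interval -0.61 to -0.27, edgeR adjusted p = 0.00844).

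In the 6 fits that each omitted a single library, Ms4a6b passed 5 times, Ms4a6c 4 times and Ms4a6d 2 times. With Pdcd1f/fLysMcre replicate 1 left out, the edgeR adjusted p rose to 0.0638 for Ms4a6b, 0.0981 for Ms4a6c and 0.141 for Ms4a6d, and Ms4a4a was the only member left past the threshold, among 1.51% of all genes tested. Without Pdcd1f/f replicate 2, which also called 1.51% of genes, adjusted p was 0.0532 for Ms4a6c and 0.13 for Ms4a6d, and Ms4a6d also missed the threshold without Pdcd1f/f replicate 3 (0.0579) and without Pdcd1f/fLysMcre replicate 3 (0.0782). The fold changes moved little in these fits, between -0.49 and -0.39 for Ms4a6b, -0.5 and -0.36 for Ms4a6c and -0.41 and -0.28 for Ms4a6d. Because reads could be split between the copies, their counts were also summed into 1 feature before the fit, which gave a log2 fold change of -0.38 (SE 0.07, edgeR adjusted p = 0.0163).

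Ms4a4b, a member described mainly in T cells, where it has been linked to signaling through the receptor GITR, was scarce in TAMs and had a change of similar size that did not pass the test. Normalized counts of 370, 302 and 301 in Pdcd1f/f TAMs compared with 174, 277 and 220 in Pdcd1f/fLysMcre TAMs. The groups did not overlap, but the gap between 301 and 277 was small against the spread of the Pdcd1f/fLysMcre libraries (SD 51.7). The log2 fold change was -0.54 (SE 0.17, 95% interval -0.91 to -0.16, edgeR adjusted p = 0.0887). Of 17 alternative analyses at the threshold of 0.05, 5 put it past. Summed with its near-identical copy Ms4a4c it gave -0.07 (SE 0.09, edgeR adjusted p = 0.672), a value set by the far more abundant Ms4a4c. The defining T cell genes Cd3d, Cd3e and Cd3g had 0 to 11 counts per library. The summed normalized counts of 13 T cell markers, mostly from Cd4, were 694 to 797 in Pdcd1f/f and 681 to 808 in Pdcd1f/fLysMcre libraries, and no marker of the list was at 0 in every library. Of the 5 T cell markers tested, Cd5 rose (log2 fold change 1.01, edgeR adjusted p = 0.0331), a call kept in 2 of the 6 fits without a single library. The other 4 did not pass, with log2 fold changes of 0.5 for Trac (edgeR adjusted p = 0.311), 0.21 for Lck (0.825), -0.09 for Cd4 (0.635) and -0.42 for Cd2 (0.44). Their part in the Ms4a4b values was not tested.

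The remaining 4 members did not pass the test. Ms4a7 had 32322, 28869 and 26458 normalized counts in Pdcd1f/f and 26065, 29715 and 24657 in Pdcd1f/fLysMcre libraries, and the groups overlapped over most of their range. Its log2 fold change was -0.12 (SE 0.09, 95% interval -0.32 to 0.08, edgeR adjusted p = 0.433), so a fall as large as that of Ms4a4a lies outside its interval. Ms4a4c had 11222, 9845 and 10200 normalized counts in Pdcd1f/f and 9388, 11336 and 9338 in Pdcd1f/fLysMcre libraries, with the highest single value in a Pdcd1f/fLysMcre library. Its log2 fold change was -0.05 (SE 0.09, 95% interval -0.25 to 0.14, edgeR adjusted p = 0.736).

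Ms4a14 had 6172, 4556 and 4476 normalized counts in Pdcd1f/f and 5176, 5768 and 4395 in Pdcd1f/fLysMcre libraries. Pdcd1f/f replicate 1 was the highest and the groups overlapped over most of their range, with a log2 fold change of 0.01 (SE 0.13, 95% interval -0.27 to 0.3, edgeR adjusted p = 0.957). The sign of this estimate changed when libraries were left out, from -0.08 without Pdcd1f/fLysMcre replicate 2 to 0.17 without Pdcd1f/f replicate 1. Ms4a8a, described in alternatively activated macrophages of tumors, had 848, 955 and 887 normalized counts in Pdcd1f/f and 687, 893 and 739 in Pdcd1f/fLysMcre libraries. Only Pdcd1f/fLysMcre replicate 2 reached into the range of the Pdcd1f/f libraries. Its log2 fold change was -0.21 (SE 0.11, 95% interval -0.45 to 0.03, edgeR adjusted p = 0.257).

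**Figure D2:**
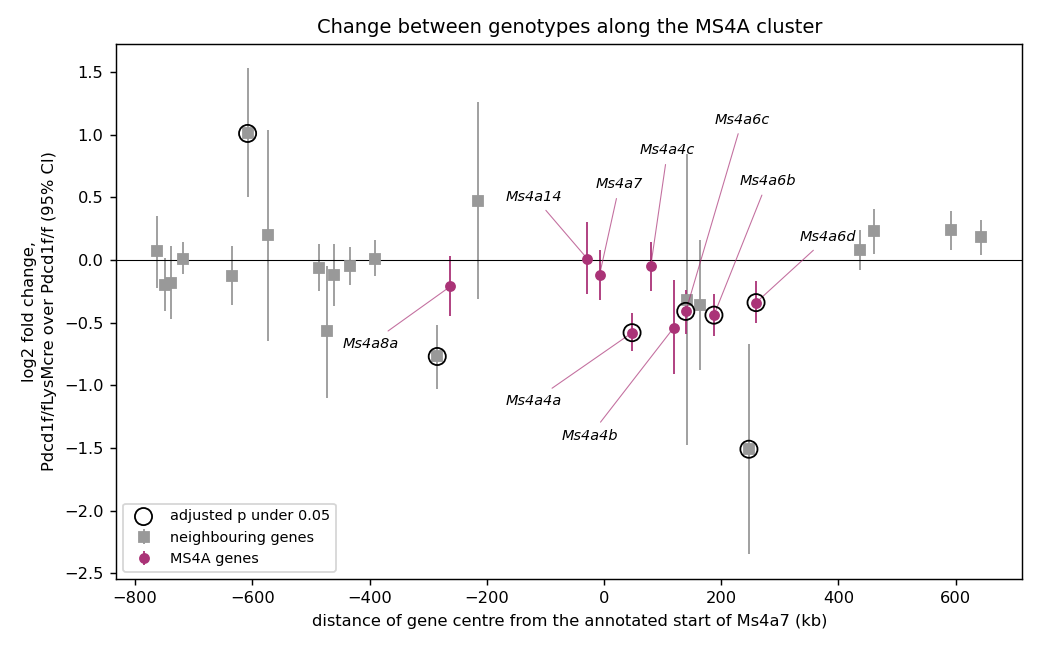
Log2 fold change between genotypes (y axis, 95% intervals) of 9 MS4A genes and 21 tested neighbouring genes against the distance of each gene's centre from the annotated start of Ms4a7 in kb (x axis). Circles mark an adjusted p under 0.05. The called MS4A genes are to the right of Ms4a7, where Ms4a4c, with a log2 fold change of -0.05, lies between Ms4a4a and the Ms4a6 genes.

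Position along the chromosome did not separate called from uncalled genes cleanly. The 4 called members are among the 6 that lie from position 11375523 on, but in that stretch Ms4a4c, at -0.05, lies between Ms4a4a at -0.58 and Ms4a4b at -0.54. Among the 66 annotated genes up to 500 kb beyond the cluster on either side or within it, other than MS4A genes, 21 were tested, with a median log2 fold change of -0.05. Of these, 2 fell and 1 rose. AW112010, an interferon-responsive transcript that lies before Ms4a8a, fell by 0.77 on the log2 scale (SE 0.12, edgeR adjusted p = 0.00393). Gm38275, which lies between Ms4a6b and Ms4a6d and had 7 to 30 counts per library, fell by 1.51 (SE 0.38, edgeR adjusted p = 0.0455). Cd5, a lymphocyte surface receptor gene on the same side of the cluster as AW112010, rose by 1.01 (SE 0.23, edgeR adjusted p = 0.0331). With each library left out in turn, AW112010 passed in 6 of 6 fits, Cd5 in 2 and Gm38275 in 1.

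To compare members without any scaling between libraries, the counts of each were divided by those of Ms4a7 in the same library. Ms4a7 was chosen as the denominator after its values were seen, so these ratios are given as a description, with no test. Each Pdcd1f/f library held 1.06 to 1.19 Ms4a4a counts for each Ms4a7 count, against 0.8 to 0.856 in Pdcd1f/fLysMcre libraries. Ms4a6d changed from 1.67, 1.81 and 1.93 to 1.57, 1.54 and 1.54, Ms4a6c from 1.17, 1.2 and 1.34 to 0.998, 1.01 and 1.01, and Ms4a6b from 0.735, 0.751 and 0.783 to 0.625, 0.585 and 0.609. The ratio of Ms4a4b was also lower in every Pdcd1f/fLysMcre library, at 0.00667 to 0.00933 against 0.0104 to 0.0114. The ratios of Ms4a4c, Ms4a14 and Ms4a8a overlapped between the genotypes. Among the Pdcd1f/fLysMcre libraries, the ratio had an SD of 0.00654 for Ms4a6c and 0.0183 for Ms4a6d, against 0.088 and 0.132 among the Pdcd1f/f libraries.

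**Figure D3:**
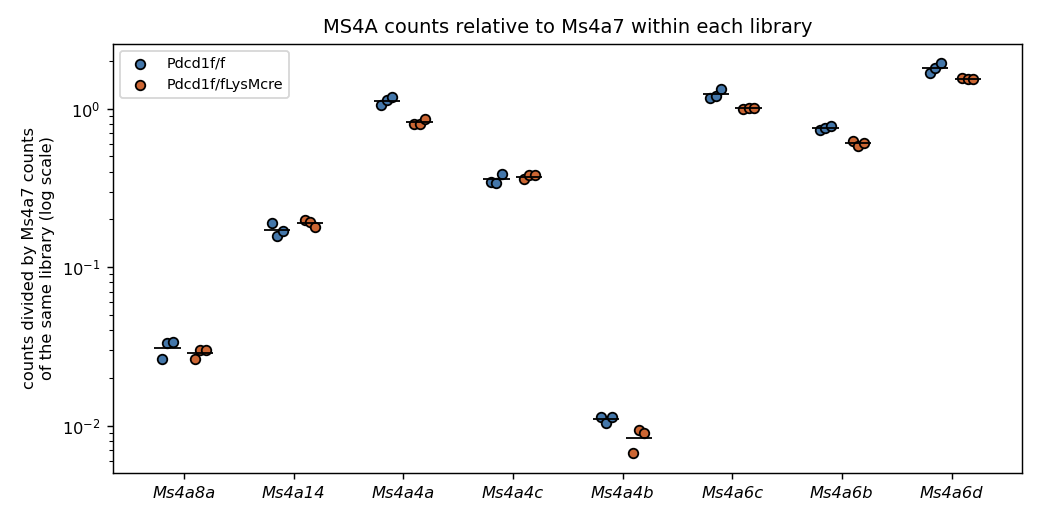
Counts of 8 MS4A genes divided by the Ms4a7 counts of the same library (y axis, log scale). Points are libraries of each genotype and lines are means, and the points of Ms4a4a, Ms4a4b, Ms4a6c, Ms4a6b and Ms4a6d are lower in all 3 Pdcd1f/fLysMcre libraries.

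The stretches just before the annotated starts of Ms4a4a and Ms4a7 are shown because these genes are transcribed away from each other and had log2 fold changes of -0.58 and -0.12, a difference that was not itself tested. Both are the 250 bases before the RefSeq start in build GRCm38.p6, written in the direction of transcription, with capitals marking matches to the motifs searched.
Ms4a4a, chr19:11375238-11375487, plus strand: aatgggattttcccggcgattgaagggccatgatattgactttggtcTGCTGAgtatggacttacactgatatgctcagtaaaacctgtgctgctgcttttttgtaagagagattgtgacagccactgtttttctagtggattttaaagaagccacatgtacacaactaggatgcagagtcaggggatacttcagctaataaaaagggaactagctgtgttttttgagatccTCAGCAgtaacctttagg
Ms4a7, chr19:11336147-11336396, minus strand: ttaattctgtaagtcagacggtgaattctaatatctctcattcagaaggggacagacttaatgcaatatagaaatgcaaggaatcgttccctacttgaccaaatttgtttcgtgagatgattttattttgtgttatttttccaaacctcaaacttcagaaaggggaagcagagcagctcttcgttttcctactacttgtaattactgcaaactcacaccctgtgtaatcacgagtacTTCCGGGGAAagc
On both strands, 6 short motifs were searched: GAGGAA (the core bound by PU.1 and other ETS factors), GAAA and GAAA with any 2 bases between (interferon-stimulated response element), TGANTCA (AP-1), TGCTGA (a MAF half-site), TTGCNNAA (C/EBP-like) and TTC and GAA with any 4 bases between (STAT6-like). In Ms4a4a, TGCTGA matched at 203 bases and, on the opposite strand as TCAGCA, at 18 bases before the start, and none of the other motifs matched. TGCTGA occurred in 16.1% of 32851 RefSeq promoter windows of the same length. In Ms4a7, the STAT6-like motif matched at 13 bases before the start, a motif present in 5.85% of windows. Of the 9 members, 8 had a RefSeq promoter entry. GAGGAA matched in the windows of Ms4a4b (64 bases before the start), Ms4a4c (61 bases) and Ms4a14 (84 bases) and is found in 23.3% of all windows. The windows of Ms4a6b and Ms4a6c held no match to the 6 motifs. TGANTCA, present in 6.75% of windows, matched in Ms4a8a, Ms4a14 and a second annotated start of Ms4a7, and Ms4a8a also held TGCTGA at 2 positions. The interferon-stimulated response element (2.98% of windows) and TTGCNNAA (9.56%) matched in no member. No match overlapped another, and a match to so short a motif describes the letters only.

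Among genes outside the cluster, the nearest structural relatives of the family also fell. Tmem176a and Tmem176b encode related multi-pass proteins of intracellular vesicles in macrophages and dendritic cells. Tmem176a fell by 0.64 on the log2 scale (SE 0.09, edgeR adjusted p = 0.00265) and Tmem176b by 0.76 (SE 0.09, edgeR adjusted p = 0.00115), and both stayed past the threshold whichever of the 6 libraries was left out. Other MS4A genes were practically silent in these cells. Of 12 further members listed, 10 were in the count table, none was abundant enough to be tested and 4 had 0 counts in every library. Ms4a1 alone reached 10 counts in any library, with 4, 10 and 2 counts in Pdcd1f/f and 7, 20 and 3 in Pdcd1f/fLysMcre libraries, and Ms4a2 had at most 1 count.

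Proteins that have been linked to MS4A members in signaling gave a mixed picture. Of 9 listed genes, 8 were tested, and 1 rose and 2 fell, with a median log2 fold change of -0.15. Clec7a, the dectin-1 receptor with which MS4A4A associates, rose by 0.4 (SE 0.08, edgeR adjusted p = 0.0235), against the fall of Ms4a4a. Trem2, a lipid-sensing receptor, fell by 0.38 (SE 0.08, edgeR adjusted p = 0.0302), and its adaptor Tyrobp by 0.33 (SE 0.08, edgeR adjusted p = 0.0405). When each of the 6 libraries was left out in turn, Clec7a and Trem2 passed in 2 of the 6 fits each and Tyrobp in 1. Syk, the kinase downstream of dectin-1, had a log2 fold change of 0.02 (95% interval -0.14 to 0.18, edgeR adjusted p = 0.882). Vsig4, whose protein has been found in a complex with MS4A6D, had 0 to 6 counts per library and was not tested.

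Genes of alternative activation and of the glucocorticoid response, the stimuli that induce MS4A4A in macrophages, were lower or not called. Of 16 listed, 15 were tested, none rose and 7 fell, with a median log2 fold change of -0.3. The 3 with the smallest adjusted p were Fkbp5, a glucocorticoid-induced chaperone (-1.02, SE 0.06, edgeR adjusted p = 8.4e-06), Cd163, the hemoglobin scavenger receptor (-1.1, SE 0.07, edgeR adjusted p = 9e-06), and Il4ra, the interleukin-4 receptor chain (-0.87, SE 0.1, edgeR adjusted p = 0.00102). Markers of resident-like macrophages overlap with this list. All 14 tested of 16 listed fell, with a median of -0.6, led by Cd163 and F13a1 (-0.73, SE 0.06, edgeR adjusted p = 0.00014), with Cbr2 and Selenop next at an adjusted p of 0.00085 each. Among 10 monocyte markers the median was -0.02, and Clec4e, the receptor Mincle, rose by 0.7 (SE 0.08, edgeR adjusted p = 0.00081).

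The gene profiles most like those of the called members over the 6 libraries were found by Pearson's r of log2(normalized count + 1) among 10593 other genes with a mean of at least 100 normalized counts. The 6 points share the genotype difference and the library effects, so the correlations only describe these libraries. For Ms4a4a they were Cxcl9 (r = 0.999), an interferon-gamma-induced chemokine, Ifngr1 (0.997), a chain of the interferon-gamma receptor, and Atg14 (0.996), an autophagy factor. For Ms4a6c they included Fcgr2b (0.999) and C130026I21Rik (0.995). For Ms4a6b they were Rasgef1b (0.999), Entpd1 (0.998) and Pdgfc (0.998), and for Ms4a6d Ropn1l (0.996), Serinc3 (0.992) and Arpc3 (0.989). Between 286 and 401 genes had an r above 0.9 with each called member, so many other genes followed the same course over so few libraries.

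The genotype labels and the sorted population were checked in the same libraries. Library totals ranged from 41833823 to 51417209 counts, so a gene with 3 counts in a library is at 0.0583 to 0.0717 CPM. Lyz2, the gene into which the Cre of LysMcre mice is inserted, had a mean of 216864 normalized counts in Pdcd1f/f and 427 in Pdcd1f/fLysMcre libraries, so the libraries separate by label. No group carried Cre without floxed Pdcd1, so the deletion of Pdcd1, the loss of Lyz2 RNA and Cre itself cannot be told apart. Pdcd1 had 10, 12 and 15 counts in Pdcd1f/f and 7, 16 and 11 in Pdcd1f/fLysMcre libraries, too few to check the deletion, and counts per gene do not show which exons were read. Of 8 macrophage markers, 3 fell (Mertk by 0.61, Adgre1 by 0.38 and Csf1r by 0.32) with a median of -0.19, and their summed normalized counts were 261827 to 279775 in Pdcd1f/f and 248214 to 250902 in Pdcd1f/fLysMcre libraries. Summed B cell markers were 169 to 209 against 120 to 149, nearly all from Cd79b, with Pax5 and Cr2 at 0 throughout, and mast cell and basophil markers summed to at most 11.2. Neutrophil markers summed to 4099 to 4474 against 3725 to 4046, with 1 of 5 tested (Mmp8, -0.48) lower. Natural killer cell markers summed to 24.1 to 46.9 against 21.6 to 29.5, with no call in 1 gene tested, and fibroblast and tumor markers to 3059 to 3330 against 2829 to 3110, with Col1a2 (-1.0) and Fap (-0.67) lower among 6 tested. The part of these differences in the MS4A values was not tested. The summed counts of 4 Y-linked genes were 1545 to 1914 in Pdcd1f/f and 6267 to 7233 in Pdcd1f/fLysMcre libraries. Xist, the X-linked transcript of female cells, had 17318 to 26511 normalized counts in Pdcd1f/f and 8530 to 13137 in Pdcd1f/fLysMcre libraries (log2 fold change -0.99, edgeR adjusted p = 0.0098). Both kinds of transcript were thus present in every library in different proportions, and the mix of sexes and the genotype cannot be told apart.

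Pdcd1f/f replicate 1 and Pdcd1f/fLysMcre replicate 2 stood apart in base composition, since deviations of their genes from the group mean fell with GC content (Spearman's rho across genes -0.759 and -0.696, against 0.187 to 0.714 in the other libraries). With both left out, which was chosen after seeing the data, 6 members were past the threshold, namely the 4 called ones, Ms4a4b at -0.62 and Ms4a8a at -0.37. Among all genes 26.2% were then called. Ms4a4a was at -0.61, Ms4a6c at -0.46, Ms4a6b at -0.44 and Ms4a6d at -0.4 in that fit. DESeq2 and the test of all genes with at least 1 count added Ms4a4b to the 4 called members, in analyses that called 10.6% and 7.32% of all genes. Offsets for GC content and length added Ms4a4b and Ms4a7 (20.3% of all genes called), and the same offsets with a replicate block also added Ms4a8a (22.0%). At a threshold of 0.01, Ms4a4a and Ms4a6b passed, with 1.96% of all genes.

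**Figure D4:**
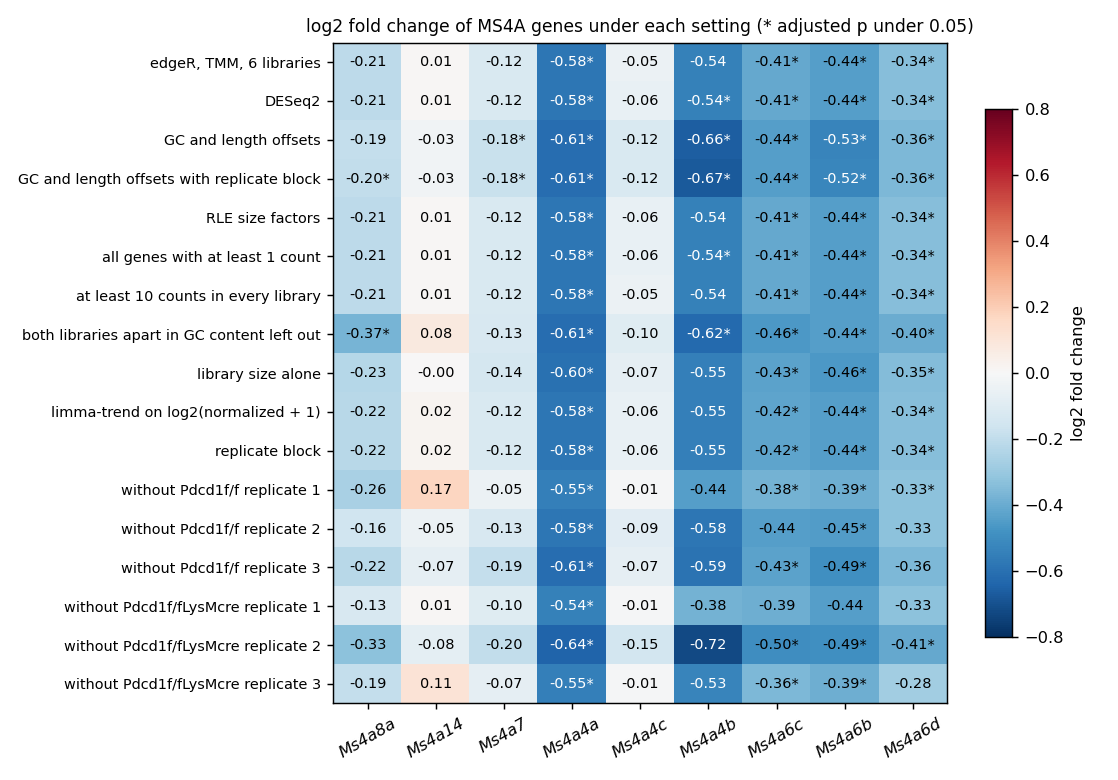
Log2 fold change of each MS4A gene (columns, in chromosome order) under the main and the alternative analyses (rows), with color from -0.8 to 0.8 and an asterisk where adjusted p was under 0.05. Ms4a4a is marked in every row shown, and Ms4a4c and Ms4a14 in none.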

How the data were processed

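Per the labels, stranded polyA libraries were sequenced as paired-end reads of 42 bases. The authors aligned them to GRCm38 with STAR 2.7.3a and counted reads per Ensembl gene using featureCounts (Subread 1.6.2). Strand and multi-mapping settings are not given in the sources used here. The deposited files hold raw counts, and a normalized signal table in which the authors divided the counts by DESeq2 size factors.

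The raw counts were tested with edgeR 4.0.16 (R 4.3.3): filterByExpr (minimum count 10, minimum total 15), TMM, glmQLFit with robust estimation, the two-sided glmQLFTest, Benjamini-Hochberg adjustment over 14469 genes and a threshold of 0.05. SEs came from the log2 fold change and F. SDs are over 3 libraries, and p-values measure the spread between these libraries, which the labels do not trace to separate mice. Positions, exon lengths and transcript sequences came from GENCODE M21 on GRCm38, and promoters from RefSeq. Coding sequences were aligned with biopython 1.88.

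The members and gene lists were chosen with earlier results of these data known. Named genes are all members, Pdcd1 and Lyz2, other MS4A genes with at least 10 counts in a library, up to 3 called genes per direction of each list, and the 3 genes most like each called member. Ms4a2, Syk, Vsig4, Xist, BE692007 and single cell type markers were named beyond this after their values were seen, and 1 gene the rule names is not reported here. Alternatives were RLE size factors, library size alone, 2 other filters, DESeq2 1.42.0, limma 3.58.1 on log2(normalized + 1), offsets for GC content and length, a replicate block, summed paralogs, a threshold of 0.01 and each library left out. The fits were tested on simulated data.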

Additional observations from a re-analysis of the deposited data

How the results depend on the processing

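Of 17 alternatives at the threshold of 0.05, Ms4a4a passed in all, Ms4a6b in 16, Ms4a6c in 15 and Ms4a6d in 13, with summed paralogs read from their sum. Of the others, Ms4a4b passed in 5, Ms4a8a and Ms4a7 in 2 each, and Ms4a4c and Ms4a14 in none. Each member kept the sign of its estimate in all 17 except Ms4a14, which to 2 decimals was below 0 in 5 of 17. The number of members past the threshold was 4 in the main analysis, 7 with GC and length offsets and a replicate block, and 2 at a threshold of 0.01. It ranged from 1 to 4 when single libraries were left out, with 1 without Pdcd1f/fLysMcre replicate 1 and 2 without Pdcd1f/f replicate 2. Over all genes the count was 786 in the main analysis, 1528 with DESeq2, 1951 with all genes of at least 1 count, 2937 with the offsets, 3179 with the offsets and the block, 3757 without both libraries that stood apart in GC content and 283 at 0.01. It ranged from 222 to 3181 without single libraries, lowest without Pdcd1f/fLysMcre replicate 1 and highest without Pdcd1f/f replicate 1. The cause of these shifts was not tested. Deviations from the genotype mean correlated at -0.076, -0.354 and 0.62 between same-numbered libraries, and at -0.664 to 0.613 between the others. These values cannot show whether replicate numbers pair the libraries, because the deviations also followed GC content. The replicate block alone gave 4 members and 1027 genes. The median of all genes stayed between -0.02 and 0.04 under each setting. Ms4a4b and Ms4a8a had the fewest counts, and 3 libraries per genotype limit the precision of all members.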
